A study of Mus musculus with 10 samples.

Results

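The Ifit genes considered here were Ifit1, Ifit1bl1, Ifit2, Ifit3 and Ifit3b, which lie close together on mouse chromosome 19. They were chosen by name, with earlier results of these data known, and make up 5 of the 28185 genes of the deposited expression table. Ifit3 and Ifit3b are near-identical copies and were therefore also summed. All 5 were measured in every one of the 10 libraries, and all 5 passed the filter on low values, a mean of at least 10 normalized counts over the 10 libraries, which left 11549 genes for testing.

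Neutrophils were taken from C57Bl/6J mice aged 12 to 16 weeks, 3 days after myocardial infarction (MI) was induced by ligating the left coronary artery (LCA), and RNA was sequenced from cells selected with anti-Ly6G beads. MI denotes cardiac cells of infarcted mice that received no mesenchymal stromal cells (libraries 13, 19 and 20), and MI + MSC cardiac cells of infarcted mice that received 3 subcutaneous injections of 1000000 syngeneic bone marrow MSCs each (libraries 15, 17 and 18). Blood (libraries 21 and 22) and Blood + MSC (libraries 23 and 24) denote circulating cells without and with the same treatment. Every group therefore carried the infarct, no sham-operated or uninjured animals are among these libraries, and nothing in the labels says which cardiac and circulating cells came from the same mouse.

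Ifit proteins are cytoplasmic effectors built from tetratricopeptide repeats, and their genes are among the most strongly induced targets of type I interferon. The interferon receptor activates the kinases Jak1 and Tyk2, which activate transcription factors that join Irf9 in a complex binding interferon-stimulated response elements in promoters. Ifit1 binds foreign RNA by its capped end, Ifit2 is known for restricting viruses and promoting cell death, and Ifit3 is known as a partner of other family members. Neutrophils with raised Ifit and other interferon-stimulated transcripts are a known state of these cells in blood and in the infarcted heart.

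In the GENCODE annotation of GRCm39, the build the files use, Ifit2 (chr19:34527932-34554524) is followed by Ifit3 (chr19:34560899-34566443), Ifit1bl1 (chr19:34570291-34579356), Ifit3b (chr19:34585328-34590801) and Ifit1 (chr19:34618271-34632174). Ifit1bl1 lies on the minus strand and the others on the plus strand. Ifit1bl2, a family member not considered among them, spans chr19:34594449-34639833 on the minus strand, a span that holds Ifit1. The sequence just before the outermost annotated start of each gene is shown, as interferon-stimulated response elements lie in promoters. The pattern TTTCNNTTTC, or its reverse complement GAAANNGAAA, was searched for on both strands of the 250 bases before the outermost annotated start. Capitals mark the matches, and each sequence reads 5′ to 3′ on the strand of its gene up to the base before that start. The coordinates of the stretches shown are chr19:34618144-34618270 for Ifit1, where the stretch is cut short by the first exon of a neighbouring gene, chr19:34560729-34560898 for Ifit3, chr19:34585158-34585327 for Ifit3b, chr19:34579357-34579526 on the minus strand for Ifit1bl1, and chr19:34527762-34527931 for Ifit2.
Ifit1: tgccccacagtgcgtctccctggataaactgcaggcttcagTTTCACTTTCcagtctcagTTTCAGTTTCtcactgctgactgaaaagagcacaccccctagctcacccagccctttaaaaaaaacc
Ifit3: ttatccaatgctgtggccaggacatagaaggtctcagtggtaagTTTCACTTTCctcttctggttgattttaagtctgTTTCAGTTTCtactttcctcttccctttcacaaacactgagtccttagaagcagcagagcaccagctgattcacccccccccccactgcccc
Ifit3b: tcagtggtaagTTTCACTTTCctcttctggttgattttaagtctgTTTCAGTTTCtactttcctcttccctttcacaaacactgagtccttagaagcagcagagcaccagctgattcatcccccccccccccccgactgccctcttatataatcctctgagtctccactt
Ifit1bl1: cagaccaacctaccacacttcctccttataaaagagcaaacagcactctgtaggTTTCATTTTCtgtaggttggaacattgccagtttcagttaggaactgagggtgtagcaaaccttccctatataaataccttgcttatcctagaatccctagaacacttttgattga
Ifit2: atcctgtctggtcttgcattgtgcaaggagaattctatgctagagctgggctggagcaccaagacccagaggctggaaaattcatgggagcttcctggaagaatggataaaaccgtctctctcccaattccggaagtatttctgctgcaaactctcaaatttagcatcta

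The pattern occurred 2 times before Ifit1, 2 times before Ifit3, 2 times before Ifit3b and 1 time before Ifit1bl1. No match lay in the 250 bases before the outermost start of Ifit2, a gene with several annotated starts, which says only that these letters are absent from that window. The canonical transcript of Ifit2 starts further in, at chr19:34528045, and the bases between the outermost start and that position were not searched. Windows of the same length held the pattern before 749 of 21757 protein-coding genes (3.44%). The stretches of Ifit3 and Ifit3b carried the same pair of matches, at -126 to -117 and -92 to -83 in Ifit3 and at -159 to -150 and -125 to -116 in Ifit3b, counting the base before the start as -1. Pattern and window length were chosen after the sequences had been seen, and a match is a description of the letters, not a bound site.

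The coding sequences of Ifit3 and Ifit3b were identical at 1198 of 1209 aligned bases (99.1%). Ifit1 and Ifit1bl1 shared 75.3% of aligned bases, and every other pair of the 5 genes 55.5% to 59.2%. Of all windows of 150 bases, 15.3% in Ifit3 and 15.6% in Ifit3b occurred without change in both transcripts. With windows of 100 bases these shares were 26.6% and 27.2%. They are shares of window positions, not of transcript length. A read from such a window cannot be assigned to either copy, so the separate values of the copies are uncertain. Ifit2 shared no such window with another gene. Ifit1 shared 0.426% of its windows of 150 bases with Ifit1bl2, a further family member whose annotated span overlaps Ifit1 on the opposite strand. According to the study's methods reads were counted by strand.

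Depth differed widely. Reads on genes ranged from 148594 (MI 13) to 8602711 (Blood + MSC 24), with 268860 in Blood 21 against 2957308 in Blood 22. Reads on the 5 genes together numbered 47 in MI 13, 354 in Blood 21 and 301 to 2065 elsewhere, and 1 read was worth 8.40 normalized counts in MI 13 and 7.07 in Blood 21. The cells were checked against 11 neutrophil markers, whose summed level was 43268 to 48652 normalized counts in Blood, 16284 to 22767 in Blood + MSC, 2454 to 7755 in MI and 2712 to 13332 in MI + MSC. Ly6g, the selected antigen, was measured at 198 and 645 in Blood, 57.0 and 41.2 in Blood + MSC and 4.75 to 26.9 in the cardiac libraries. The 6 heart muscle markers summed to 3100 to 9900 in MI and 1227 to 4819 in MI + MSC, so the cardiac libraries held transcripts of other cells. The 10 monocyte and macrophage markers summed to 3076 to 7903 in MI and 5581 to 11386.5 in MI + MSC. In Blood these 10 summed to 6105 to 7560 and in Blood + MSC to 5253 to 6903. The part of such cells in the Ifit levels was not tested. In bulk samples fewer cells of a type and less RNA per cell cannot be told apart.

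The circulating cells gave the widest spread of Ifit levels between groups. Ifit2 was measured at 389 and 151 normalized counts in Blood 21 and 22, and at 18.4 and 40.0 in Blood + MSC 23 and 24. Ifit1 was at 918.5 and 368 in the untreated and at 78.5 and 141 in the treated pair. Both untreated libraries lay above both treated ones for either gene, and Blood 21 was the highest of all 10 libraries for Ifit1. Ifit3 levels were 608 and 281 without MSC and 44.1 and 83.3 with MSC. Ifit3b levels were 445 and 188 without MSC and 32.0 and 60.9 with MSC. The copies kept the same order of libraries, with Blood 21 first and Blood + MSC 23 last. Ifit1bl1, an Ifit1-like gene, was at 141 and 56.5 without MSC and at 10.8 and 22.04 with MSC.

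**Figure D1:**
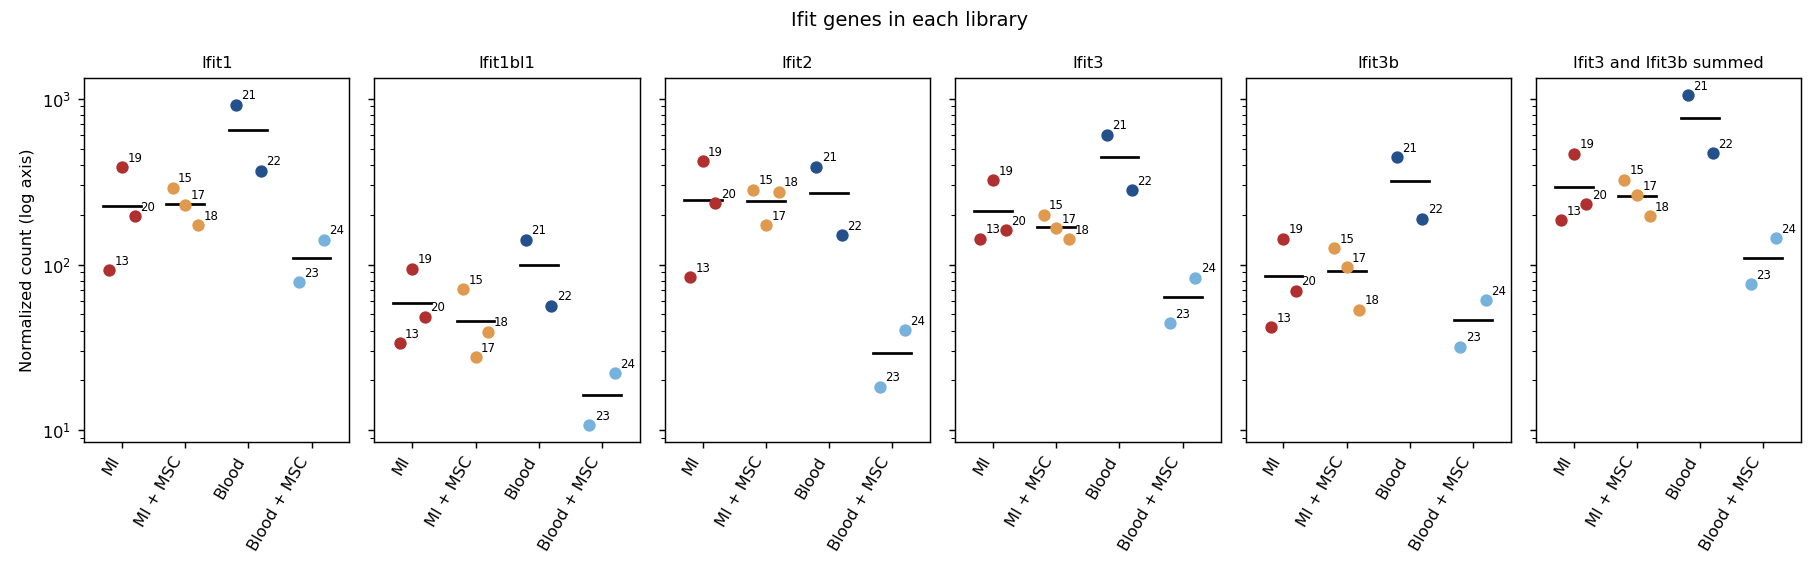
Normalized counts of each Ifit gene, and of Ifit3 and Ifit3b summed, in the 10 libraries (log axis, library numbers beside the points), grouped as MI, MI + MSC, Blood and Blood + MSC, with points for libraries and bars for group means. Each gene has both Blood + MSC points under both Blood points, while the MI and MI + MSC points overlap.

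As group means, Ifit1 was 643 ± 389 (SD, n = 2) in Blood and 110 ± 44.3 (SD, n = 2) in Blood + MSC, a 5.85-fold difference. For Ifit2 the means were 270 ± 168 (SD, n = 2) and 29.2 ± 15.3 (SD, n = 2), a 9.23-fold difference. The sum of Ifit3 and Ifit3b, which does not depend on how reads were split between the copies, was 761 ± 412 (SD, n = 2) and 110 ± 48.1 (SD, n = 2), a 6.91-fold difference. Ifit3 alone differed 6.98-fold, Ifit3b 6.82-fold and Ifit1bl1 6.03-fold. The 5 genes thus differed by similar factors, with Ifit2 at the top.

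The question of whether MSC treatment goes with another Ifit level in circulating neutrophils was put to limma, on log2(normalized count + 2) with 1 mean per group over all 10 libraries. A gene was called when its Benjamini-Hochberg adjusted p was under 0.05 and its log2 fold change at least 0.5 in size. The log2 fold changes of Blood + MSC against Blood were -3.06 ± 0.68 (SE) for Ifit2, -2.73 ± 0.48 for Ifit3, -2.66 ± 0.61 for Ifit3b, -2.44 ± 0.62 for Ifit1 and -2.39 ± 0.61 for Ifit1bl1. Their 95% confidence intervals all lay below 0, from -4.54 to -1.58 for Ifit2 and from -3.79 to -1.67 for Ifit3. None of the 5 was called, each with an adjusted p of 0.672 in limma, against a background of 0.0% of genes called lower. Over all genes 0 of 11549 were called in this comparison by limma, 848 had an unadjusted p under 0.05, edgeR's quasi-likelihood test called 0 and DESeq2 179.

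All 5 Ifit genes were among the 346 genes (3.0% of those tested) that had a lower level with an unadjusted p under 0.05 in limma. They were also among the 151 genes (1.31%) with a log2 fold change of -2 or below. The Blood and Blood + MSC libraries did not overlap for 5 of 5 members, while 15.4% of all genes were lower without overlap. DESeq2 on the recovered reads of all libraries called 5 of 5 lower, where 1.52% of genes were, with adjusted p of 0.000184 for Ifit3, 0.00071 for Ifit2, 0.00235 for Ifit3b, 0.00354 for Ifit1 and 0.0137 for Ifit1bl1. With DESeq2 on the blood libraries alone 4 of 5 were called (background 0.268%), Ifit1bl1 having an adjusted p of 0.0762. With edgeR 0 of 5 were called (background 0.0%), with adjusted p of 0.132 to 0.186.

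Single libraries decided these calls. Without Blood 22, whose Ifit levels were nearer to the treated libraries, limma called 5 of 5 (background 3.38%), with log2 fold changes of -3.03 to -3.74. The Blood group is then Blood 21 alone, a single shallow library assumed to vary like the other groups. Without Blood 21, when Blood 22 stands alone, limma called none, with log2 fold changes of -1.74 to -2.38, and DESeq2 called 1 of 5, Ifit3 (adjusted p = 0.0334, background 0.299%). DESeq2 called 0 of 5 without Blood + MSC 23 (background 0.102%) and 4 of 5 without Blood + MSC 24 (background 0.119%). The sign stayed negative for all 5 genes in each of the 28 alternatives computed. The median of all genes moved with the scaling, from 0.11 as deposited to 0.38 with library size and 0.73 with TMM factors, and relative to it the members were at -2.50 to -3.17, -2.47 to -3.14 and -2.50 to -3.15.

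**Figure D2:**
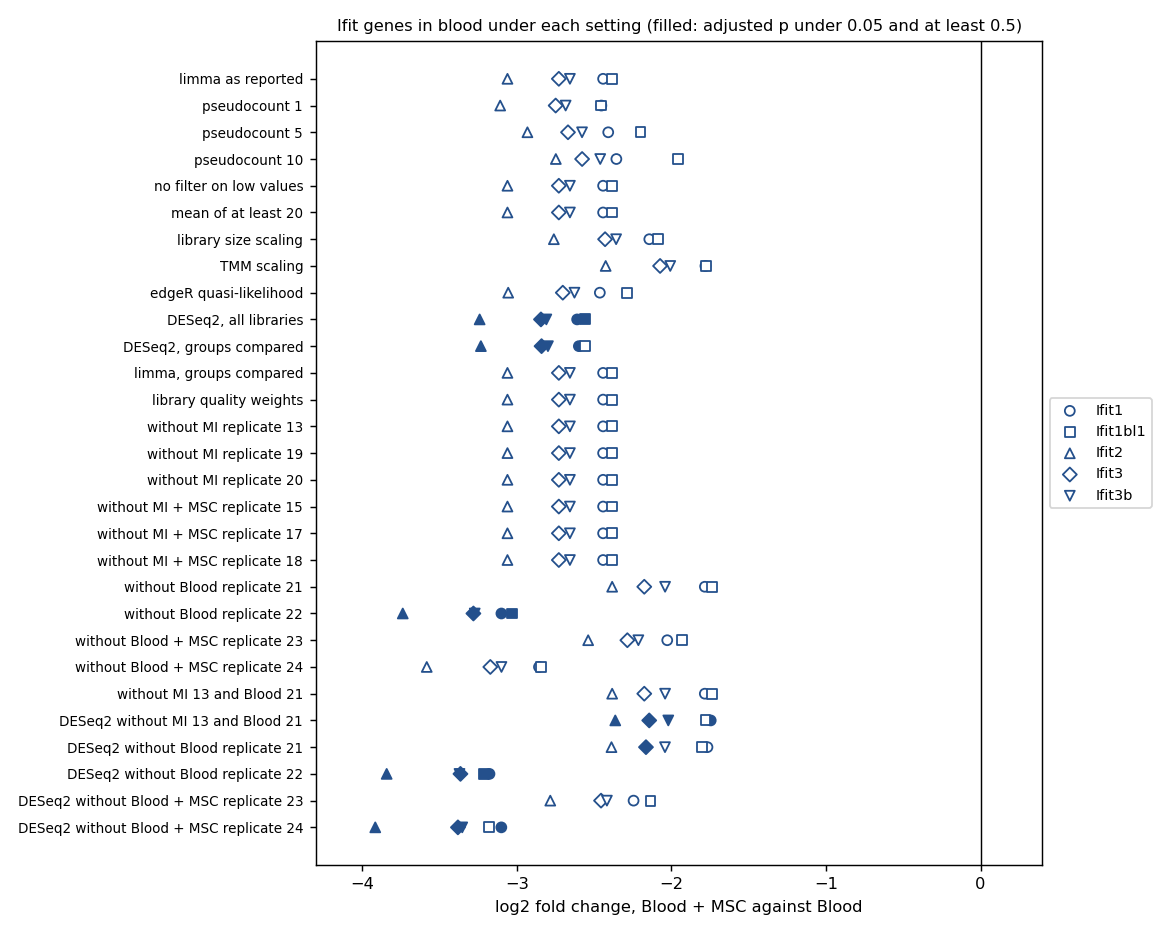
Log2 fold change of Blood + MSC against Blood for each Ifit gene under the settings computed, with filled symbols for called values and open symbols for those not called. All values lie below 0, and the called ones come from DESeq2 and from the limma fit without Blood 22.

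Depth and marker levels moved with this comparison, and the label named batch equals the group, so MSC treatment and batch cannot be told apart. Both Blood + MSC libraries held more reads on genes (6339922 and 8602711) than either Blood library. The summed neutrophil markers were lower in them, with S100a8, S100a9, Retnlg, Cxcr2, Ly6g and Lcn2 each below both Blood libraries. Csf3r, Mmp9, Ngp, Camp and Ltf overlapped between the groups. The 7 platelet markers measured summed to between 1183 in Blood 22 and 28389 in Blood 21, against 619 to 738 in Blood + MSC. The part of depth and of these markers in the Ifit difference was not tested. The 5 measured markers of plasmacytoid dendritic cells, the classical source of type I interferon, summed to 0 to 41.6 in Blood and 22.6 to 44.8 in Blood + MSC.

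In the cardiac cells the Ifit levels of both groups overlapped. Ifit1 was at 92.4, 387 and 196 normalized counts in MI 13, 19 and 20, and at 291, 230 and 173 in MI + MSC 15, 17 and 18. Ifit2 was at 84.0, 420 and 234 without and at 282, 172 and 275 with MSC. The treated values lay inside the untreated range for both genes. Ifit3 levels were 143, 323 and 162 without MSC and 199, 165 and 142 with MSC. Ifit3b levels were 42.0, 143 and 69.5 without MSC and 125, 96.4 and 53.6 with MSC. MI 19 was the highest cardiac library for either copy. Ifit1bl1 levels were 33.6, 94.2 and 48.4 without MSC and 71.0, 27.6 and 39.3 with MSC. MI 13 rested on 4 to 17 reads a gene.

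The cardiac group means differed by less than the spread between libraries. Ifit1 was 225 ± 150 (SD, n = 3) in MI and 231 ± 59.2 (SD, n = 3) in MI + MSC, and Ifit2 246 ± 168 (SD, n = 3) and 243 ± 61.5 (SD, n = 3). The sum of Ifit3 and Ifit3b was 294 ± 151 (SD, n = 3) in MI and 261 ± 64.3 (SD, n = 3) in MI + MSC. The log2 fold changes in limma were 0.24 for Ifit1 (95% confidence interval -0.87 to 1.34), 0.23 for Ifit2 (-0.99 to 1.44), 0.20 for Ifit3b (-0.88 to 1.29), -0.22 for Ifit3 (-1.09 to 0.64) and -0.32 for Ifit1bl1 (-1.40 to 0.77). Differences of up to about these bounds in either direction are not excluded. The bounds are no limit of detection, as calls adjusted over all genes also missed the values of -2.39 to -3.06 in blood. None was called in limma (adjusted p 0.835 to 0.900, background 0.0% in each direction), nor by edgeR (background 0.0%) or by DESeq2 (background 0.182% higher and 0.476% lower). In 0 of 5 members did the groups lie apart, where 7.05% of all genes were higher and 9.6% lower without overlap. Over all genes limma and edgeR called 0 and DESeq2 76, and 925 had an unadjusted p under 0.05 in limma. The sign of Ifit1, Ifit2 and Ifit3b turned negative with edgeR or when MI 13 and Blood 21 were left out, and that of Ifit3 positive with TMM scaling. The 7 endothelial markers summed to 1715 to 1906 in MI and 411 to 784 in MI + MSC, and their part in these values was not tested.

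**Figure D3:**
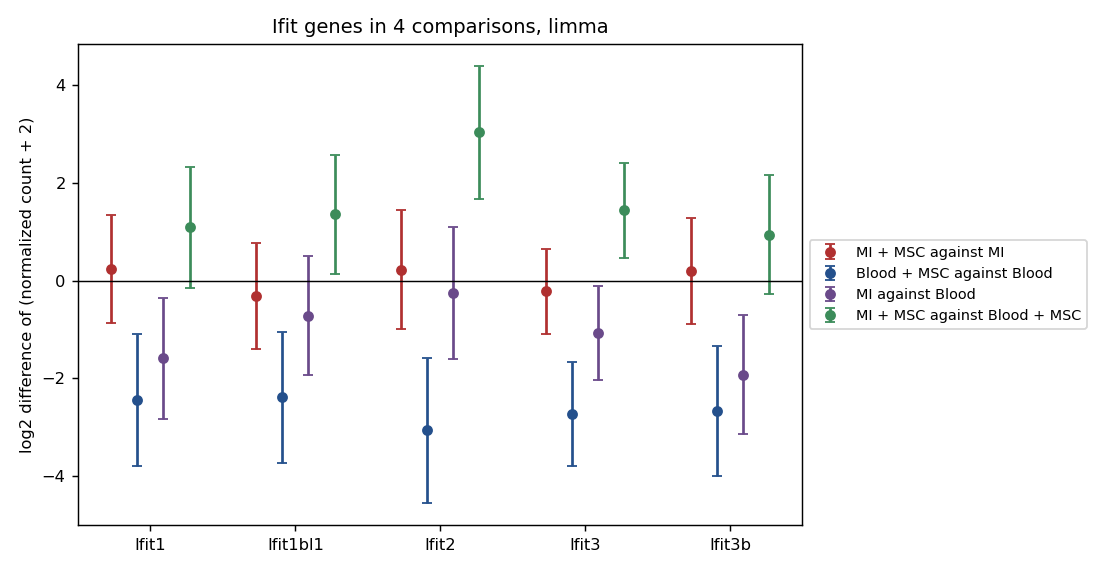
Log2 differences of (normalized count + 2) from limma for the 5 Ifit genes in the 4 comparisons, with points for estimates and bars for 95% confidence intervals. The intervals of MI + MSC against MI cross 0, and those of Blood + MSC against Blood lie below 0.

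Whether the difference between treated and untreated groups was unlike in the 2 tissues was tested as an interaction, the cardiac minus the circulating log2 fold change. Treatment and label batch cannot be told apart in it, nor in the MSC comparison of either tissue. The interaction was 3.29 for Ifit2, 2.86 for Ifit3b, 2.68 for Ifit1, 2.51 for Ifit3 and 2.07 for Ifit1bl1. None passed the threshold in limma (adjusted p = 0.63 for all 5, background 0.0%), where 0 genes were called and 838 had an unadjusted p under 0.05. DESeq2 called 18 genes, 15 of them with a higher effect in the heart (0.13%), among them Ifit2 and Ifit3 with an adjusted p of 0.038 each. It gave no adjusted p for 9405 of the 11549 genes, Ifit1bl1 and Ifit3b among them. The 0.13% is a share of all genes tested, not of those given an adjusted p. Without Blood 22 limma called 4 of 5 (background 2.1%) and DESeq2 4 of 5 (background 2.37%), and limma then called 1086 and DESeq2 308 genes in all. Without Blood 21 neither tool called a member.

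The tissues were also compared within each treatment. In untreated mice Ifit3b (log2 fold change of MI against Blood -1.92 ± 0.55 SE, adjusted p = 0.0212) and Ifit1 (-1.59 ± 0.56 SE, adjusted p = 0.0479) were called lower in the heart by limma, 2 of 5 members where 13.5% of genes were called lower. The sum of Ifit3 and Ifit3b was also called (-1.37, adjusted p = 0.0445), a call lost in 16 of 28 alternatives, among them limma without MI 13 (adjusted p = 0.116), without Blood 21 (adjusted p = 0.288) and with library size scaling (adjusted p = 0.159). Ifit3 (-1.07, adjusted p = 0.0781), Ifit1bl1 (-0.72, adjusted p = 0.332) and Ifit2 (-0.25, adjusted p = 0.773) were not. Only Ifit3b had groups that did not overlap, against 23.6% of all genes lower without overlap. Limma called none of the 5 without MI 13 or without Blood 21, 3 without MI 19 (background 11.4%), 3 without Blood 22 (background 9.78%), and 1 without any other single library. Without both MI 13 and Blood 21 the value of Ifit2 was 1.05.

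In treated mice the log2 fold changes of all 5 members between tissues were above 0. Ifit2 was called higher in MI + MSC than in Blood + MSC (log2 fold change 3.03 ± 0.62 SE, adjusted p = 0.00901 in limma), 1 of 5 members where 8.23% of genes were called higher. The values of Ifit3 (1.43, adjusted p = 0.0514), Ifit1bl1 (1.35, adjusted p = 0.124), Ifit1 (1.09, adjusted p = 0.214) and Ifit3b (0.94, adjusted p = 0.272) did not pass. Libraries did not overlap for 4 of 5 members, Ifit3b being the exception, against 33.8% of all genes higher without overlap. The call of Ifit2 was lost without Blood + MSC 23 (adjusted p = 0.14) and with TMM scaling (adjusted p = 0.053). These contrasts share their groups with the MSC comparisons, and tissue, label batch and group cannot be told apart.

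Levels between genes were compared per kilobase of canonical transcript, so the order depends on the annotated lengths. These were 7421 bases for Ifit1 (1389 of them coding), 4588 for Ifit2, 2200 for Ifit1bl1, 2089 for Ifit3 (1209 coding) and 2042 for Ifit3b. Before division by length the mean of Ifit1 lay above that of Ifit3 in each group, in Blood at 643 against 444. Per kb Ifit3 was the highest in every group, at 100 ± 47.4 normalized counts in MI, 80.9 ± 13.7 in MI + MSC (SD, n = 3 each), 213 ± 110 in Blood and 30.5 ± 13.3 in Blood + MSC (SD, n = 2 each). Ifit2 stood next to it in the heart, at 53.6 per kb in MI and 53.0 in MI + MSC, ahead of Ifit3b, Ifit1 and Ifit1bl1. In Blood the order was Ifit3, Ifit3b, Ifit1, Ifit2 (58.8 per kb) and Ifit1bl1, and in Blood + MSC Ifit2 was last at 6.37 per kb. Neighbours in these orders overlapped in their ranges, except Ifit3 over Ifit2 in MI + MSC and Ifit1 over Ifit1bl1 in Blood + MSC.

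The place of Ifit2 was followed within libraries, where a ratio of reads does not depend on the scaling. The ratio of Ifit2 to Ifit1 reads of untreated cardiac cells was 0.909, 1.08 and 1.19, and that of treated ones 0.968, 0.75 and 1.59. In circulating cells it was 0.423 and 0.410 without MSC and 0.234 and 0.284 with MSC. All 6 cardiac libraries thus lay above all 4 blood libraries, by 1.68 log2 units on average (exact permutation test, two-sided, p = 0.00952, the smallest this design allows, adjusted p = 0.0238 over 5 ratios). The ratio of Ifit3b to Ifit3 was 0.294 to 0.627 in the heart and 0.670 to 0.733 in blood, a difference of -0.68 (exact permutation test, two-sided, p = 0.00952, adjusted p = 0.0238). Without MI 13 and Blood 21 the differences were 1.85 and -0.55. The ratios to Ifit1 of Ifit3 (adjusted p = 0.0595 by the exact permutation test), Ifit1bl1 (0.0595) and Ifit3b (0.0762) did not pass. These ratios were chosen after the values had been seen, the libraries of a tissue were treated alike whatever the treatment, and reads shared between the copies enter the second ratio.

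**Figure D4:**
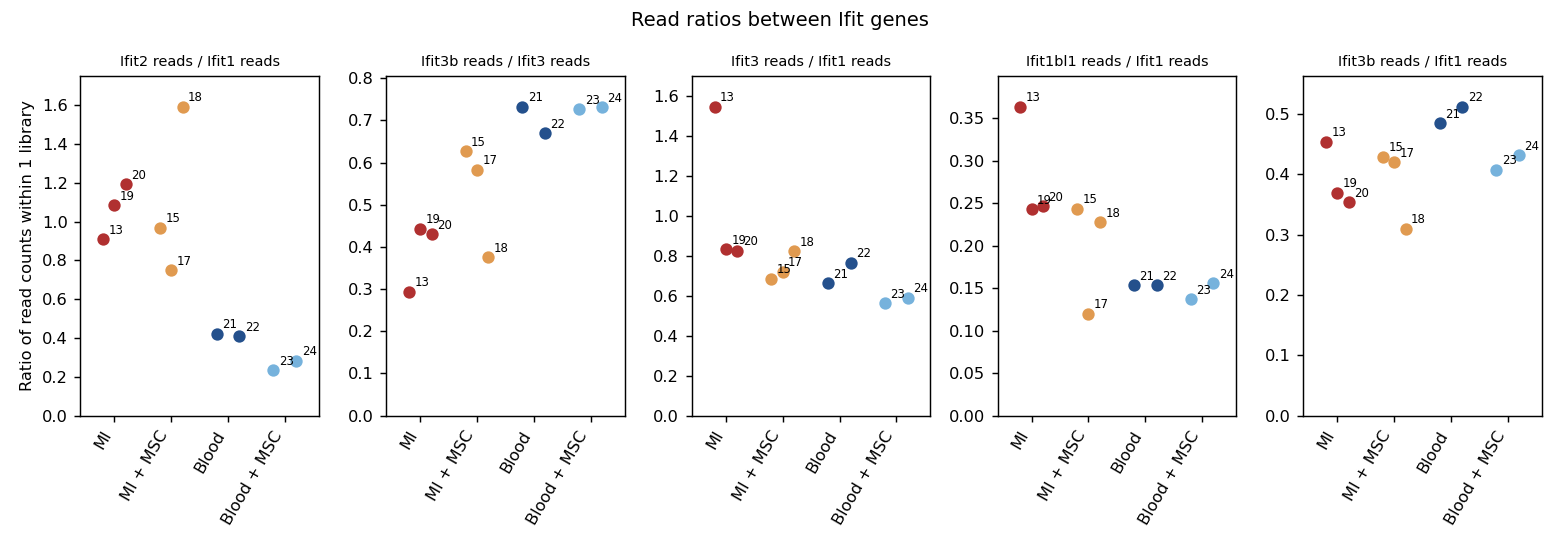
Ratios of reads between Ifit genes in each library (linear axes starting at 0, library numbers beside the points), by group. For Ifit2 to Ifit1 the 6 cardiac libraries lie between 0.75 and 1.59 and the 4 blood libraries between 0.234 and 0.423.

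The members varied together across libraries. Pearson's r of their log2 levels ranged from 0.677 (Ifit2 and Ifit3b) to 0.983 (Ifit1 and Ifit3b) over the 10 libraries, and from 0.929 to 0.988 after the mean of each tissue had been subtracted. Points share a library, its depth and its scaling, and r is given as a description. Against the mean of Ifit1, Ifit2, Ifit3 and Ifit3b, the non-member genes with the highest r over 10 libraries were Gm13456 (0.920), Ifi213 (0.891), Igbp1 (0.886), Slfn5 (0.884), Actb (0.870), Bst2 (0.870), Sdf2 (0.867) and Ppil1 (0.862), and Ifit1bl1 had 0.955. After subtraction of tissue means they were Sp110 (0.969), Ube2r2 (0.964), Irgm2 (0.948), Irf7 (0.948), H2-T24 (0.945), Irf9 (0.944), Igtp (0.940) and Oasl1 (0.938). Bst2, Slfn5, Oasl1, Irf7 and Irf9 are interferon-stimulated genes of the lists below, and Irgm2 and Igtp are interferon-inducible GTPases.

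The rest of the interferon pathway was described from lists of genes. The 9 interferon ligands listed were not analysed here. Of 7 receptors and kinases 0 were called by limma or DESeq2 in either MSC comparison, and their median log2 fold change in blood was 0.05 beside 0.11 for all genes. Jak1, which signals at the receptor, was at 594 and 961 normalized counts in the untreated and at 824 and 743 in the treated blood libraries.

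Among 8 transcription factors, 4 had a log2 fold change below 0 in blood and 3 of these an unadjusted p under 0.05 in limma. Irf7, which amplifies the interferon response, was at 650 and 530 normalized counts without MSC and at 182 and 241 with MSC. Its log2 fold change was -1.48 (adjusted p = 0.672 in limma and 0.0241 in DESeq2). DESeq2 called 1 factor of the 8, where 1.52% of all genes were called lower. Irf9 had -0.73 and Stat2 -0.61 (adjusted p 0.672 and 0.691 in limma). Irf9 was at 480 and 434 without MSC and at 235 and 322 with MSC. In the heart Stat2 (-0.31), Irf9 (0.01) and Irf7 (-0.01) were near 0, and Irf1 was at 1.01 (adjusted p = 0.618 in limma).

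Of 11 sensors and adaptors tested, 7 had a value below 0 in blood and 4 above, and 0 were called in either MSC comparison. Ifih1, a sensor of double-stranded RNA, was at 290 and 247 without MSC and at 124 and 164 with MSC. Rigi was at 318 and 429 against 204 and 275. Over the list 5 of 11 were lower without overlap, beside 15.4% of all genes. The other 4 had log2 fold changes above 0, Tlr9 (0.86) and Cgas (0.28) among them, but none was higher without overlap. Tlr9 was near the floor, at 0 and 1.95 normalized counts without MSC and at 1.31 and 5.89 with MSC. Of 6 feedback inhibitors 0 were called in either MSC comparison. Usp18, which dampens receptor signalling, had a log2 fold change of -0.85 in blood (adjusted p = 0.672 in limma). Socs1 and Socs3, inhibitors of the kinases, had 1.28 and 1.14 in the heart (adjusted p = 0.587 and 0.602).

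The other interferon-stimulated effectors came closest to the Ifit genes. All 29 tested had a log2 fold change below 0 in blood, with a median of -1.20 beside 0.11 over all genes, 27 of them had lower groups without overlap (15.4% over all genes), and 13 had an unadjusted p under 0.05 in limma (3.0% over all genes). Neither limma nor DESeq2 called any of them. Oas3, an oligoadenylate synthetase, was at 1053 and 1079 without MSC and at 409 and 472 with MSC, and Oas2 at 495 and 506 against 253 and 338. Of the untreated pair, Blood 21 was the higher for 21 of these 29 genes and for 5 of 5 Ifit genes, beside 37.6% of all genes tested. In the heart 18 of the 29 were below 0 and 11 above, with a median of -0.11, and 0 were called. Between tissues limma called 11 of 29 lower in MI than in Blood (13.5% over all genes) and 2 higher (21.2% over all genes), the latter including Cxcl10, a chemokine, at 3.04 (adjusted p = 0.00233).

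**Figure D5:**
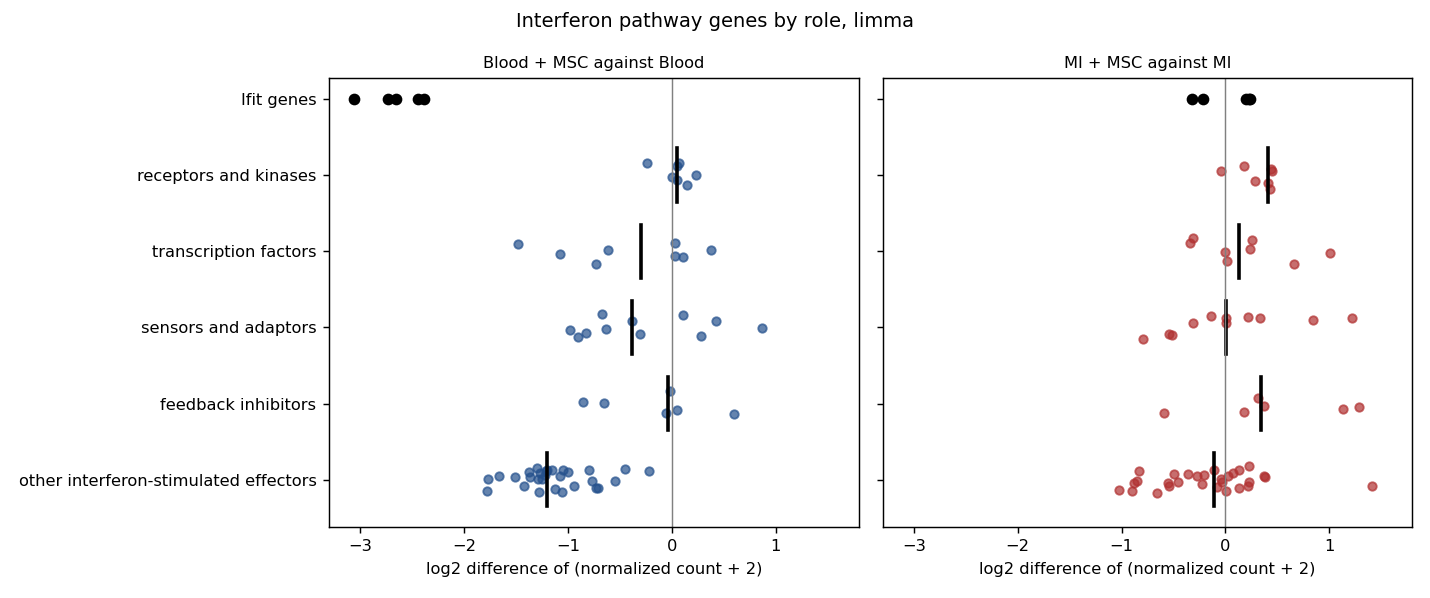
Log2 fold changes from limma of the Ifit genes and of the interferon pathway lists in MI + MSC against MI and in Blood + MSC against Blood, with 1 point per gene and bars for the medians of the lists. The Ifit genes lie lowest in blood, and the other effectors all lie below 0 there.

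Of the other genes annotated within the cluster or up to 250 kb from it, 7 were in the table and 5 were tested. Ifit1bl2, a further family member, was at 226 and 237 normalized counts in the untreated and at 66.2 and 65.1 in the treated blood libraries. Its log2 fold change was -1.79 (adjusted p = 0.672 in limma). The death receptor gene Fas had 0.24 and Lipa, which encodes lysosomal acid lipase, 0.08 in blood. Lipa had the highest value of the cardiac MSC comparison among these neighbours, at 1.23 (adjusted p = 0.570 in limma). Ch25h, cholesterol hydroxylase, was listed at 0 in both Blood libraries and at 16.8 to 41.2 in MI. Pank1, a pantothenate kinase, had -0.49 in blood and -1.01 in the heart (adjusted p = 0.888 and 0.629 in limma).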

How the data were processed

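RNA-seq of Ly6G-selected cells was analysed in 10 libraries of 4 groups, taken from the labels. According to the study's methods and processing notes, the authors trimmed reads (Trimmomatic 0.39), removed duplicates (Picard), aligned to GRCm39 (STAR 2.7.11), counted by strand (featureCounts 2.0.3), dropped mitochondrial reads and scaled the counts with DESeq2. What was deposited is a signal per gene, the read count divided by the authors' size factors, and the table named as raw equals the normalized one in all 281850 values. Dividing by the value of 1 read gave whole reads (within 0.01) for 100% of values. Depth was 148594 to 8602711 reads, and precision follows it.

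The planned test is limma 3.58.1 (R 4.3.3) with a mean-variance trend, on log2(normalized count + 2) of genes with a mean of at least 10, and a single model. Calls need an adjusted p under 0.05 and, except for the interaction, a log2 fold change of at least 0.5. Alternatives were pseudocounts of 1, 5 and 10, no filter or a mean of 20, library size or TMM scaling, edgeR 4.0.16 and DESeq2 1.42.0 on recovered reads, groups fitted alone, library quality weights and each library left out. Leaving out MI 13 and Blood 21 together, and DESeq2 without single blood libraries, were added after seeing the data. Scripts were tested on simulated data. Ratios used exact permutation tests (scipy 1.17.1).

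Members and lists were chosen with earlier results of these data known. Named were all members, list genes by smallest p (up to 6 a list), the 8 genes most like the members and neighbours within 250 kb. The methods name the single animal as the in vivo unit, but the labels tie no library to an animal, so p-values measure the spread between libraries. Gene names and positions came from GENCODE, which held 27906 of 28185 identifiers. The label named batch equals the group. A gene of the transcription factor list is not reported here.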

Additional observations from a re-analysis of the deposited data

How the results depend on the processing

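No paired analysis was possible because the library numbers in the labels differ in every group. The cause of the changes below was not tested. With each of the 10 libraries left out in turn, limma called 0 to 1504 genes and 0 to 5 members in blood, 0 genes in the heart, 3209 to 4023 genes and 0 to 3 members in MI against Blood, 272 to 2716 genes and 0 to 2 members in MI + MSC against Blood + MSC, and 0 to 4 members for the interaction. DESeq2, run without each of the 4 blood libraries only, called 13 to 457 genes and 0 to 5 members, 53 to 150 genes, 1167 to 4223 genes and 0 to 3 members, 1221 to 4215 genes and 1 to 3 members, and 0 to 4 members. Where a blood group is left with 1 library, that library is assumed to vary like the other groups.

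Genes called in the heart numbered 0 in limma over all libraries, 76 with DESeq2, 150 with DESeq2 on the groups compared, 1101 with library quality weights and 128 with DESeq2 without MI 13 and Blood 21. In blood they numbered 0, against 179 with DESeq2, 32 with DESeq2 on the groups compared, 1 in limma without MI 13 and Blood 21 and 114 with DESeq2 without them, and members called were 5, 4, 0 and 4. In MI against Blood 4008 genes were called, against 2235 with TMM scaling, 2359 with DESeq2 and 1700 with limma on the groups compared, and 1887 with quality weights. The 2 members called there became 1 with a pseudocount of 1, a mean of 20, TMM scaling or DESeq2 on the groups compared, and 0 with library size scaling, limma on the groups compared, quality weights or without MI 13 and Blood 21 by either tool. In MI + MSC against Blood + MSC 1627 genes were called, against 3693 with edgeR, 3353 with DESeq2, 4532 and 4010 with DESeq2 and limma on the groups compared, 5378 with quality weights, and 4593 and 4669 with limma and DESeq2 without MI 13 and Blood 21. The single member there became 2 with a mean of 20 or library size scaling, 0 with TMM, 3 with edgeR or DESeq2, 4 on the groups compared or without MI 13 and Blood 21, and 5 with quality weights. Genes called lower in MI than in Blood were 1556 of 11549 in limma, 1506 with a pseudocount of 1 and 637 with quality weights. On the groups compared they were 1019 with DESeq2 and 609 with limma. They were 1437 of 8919 with a mean of 20, 819 of 11869 with library size scaling and 845 of 11298 with TMM. Genes called higher in MI + MSC than in Blood + MSC also changed in number. They were 951 of 11549 in limma, 846 of 8919 with a mean of 20, 1046 of 11869 with library size scaling and 491 of 11298 with TMM. Of 11549 they were 1892 with edgeR, 2057 with DESeq2, 2350 and 2176 with DESeq2 and limma on the groups compared, and 2926 with quality weights. DESeq2 called 2 members for the interaction (background 0.13%).

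Signs turned in the heart for Ifit2 (edgeR -0.10, DESeq2 -0.076, DESeq2 on the groups compared -0.037, quality weights -0.47, without MI 13 and Blood 21 -0.40 in limma and -0.43 in DESeq2), Ifit1 (edgeR -0.047, DESeq2 -0.029, weights -0.41, without both -0.28 and -0.34), Ifit3b (edgeR -0.039, weights -0.30, without both -0.20 and -0.22) and Ifit3 (TMM 0.055). In MI against Blood they turned for Ifit2 (library size 0.26, edgeR 0.0057, weights 0.58, without both 1.05 and 1.09) and Ifit1bl1 (without both 0.25 and 0.30). With 1 library left out (all 10 in limma, the blood libraries in DESeq2) the values ranged in the heart from -0.40 to 0.75 for Ifit2, -0.44 to 0.14 for Ifit3, -0.67 to 0.076 for Ifit1bl1, -0.20 to 0.66 for Ifit3b and -0.28 to 0.74 for Ifit1, and in MI against Blood from -0.93 to 0.65 for Ifit2 and -1.36 to 0.041 for Ifit1bl1.

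The sum of Ifit3 and Ifit3b was 0.19 in the heart with TMM (-0.36 to 0.30 with 1 library left out). In blood it passed with DESeq2 at -2.85, on the groups compared at -2.84 and without MI 13 and Blood 21 at -2.09 (-3.39 to -2.12). In MI against Blood it missed with library size (-0.85), TMM (-1.59), DESeq2 (-1.36) or limma (-1.37) on the groups compared, weights (-0.82) and without both (-0.51 and -0.46), with a range of -1.95 to -0.74. In MI + MSC against Blood + MSC it passed with DESeq2 (1.28), on the groups compared (1.15 in DESeq2, 1.27 in limma), weights (1.39) and without both (1.27 and 1.21), with a range of 0.82 to 1.81. The interaction passed in DESeq2 (2.62, range 1.91 to 3.22). With 2 libraries per blood group, 268860 reads in Blood 21 and 148594 in MI 13, small differences were not detectable. Large ones could be missed too, as limma over all libraries called none of the log2 fold changes of -2.39 to -3.06 in blood.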
